A study of Homo sapiens with 3 samples.

Results

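The nuclear pore and nuclear transport genes are the nucleoporins that build the pore and the carriers and switch proteins that move cargo through it. Members were taken as the protein-coding genes whose symbol belongs to the NUP, KPNA, IPO, TNPO or XPO families or is one of NDC1, TPR, POM121, RANBP2, RAN, RANGAP1, RCC1, KPNB1, CSE1L and XPOT, and 54 of the 19926 protein-coding genes in the data met this rule. Their RNA was measured in HEK293T, an established line of human kidney origin with the large T antigen of SV40, as 3 replicates of 1 condition, with no treatment and no control group. The cells were collected 24 h after seeding, and total RNA was made into QuantSeq 3′ libraries, whose reads start near the poly(A) tail. With 1 condition, no comparison between conditions can be made and no test was run, so the results are levels, their order and their spread over the replicates. The methods of the study describe the replicates as biologically independent, and the labels say nothing further on how they were separated.

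The nuclear pore complex is a large ring-shaped channel through the nuclear envelope, built from many copies of each nucleoporin. Scaffold nucleoporins form an outer and an inner ring, membrane proteins anchor them, and nucleoporins rich in phenylalanine-glycine repeats fill the channel and form the barrier that carriers cross. Importins bind cargo in the cytoplasm and exportins bind it in the nucleus, and the direction comes from the GTPase Ran, kept in its GTP form in the nucleus by RCC1 and converted to its GDP form in the cytoplasm with the help of RANGAP1.

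The series belongs to a study of i-motifs, structures that C-rich DNA strands can fold into, and the promoters of the members were therefore searched for 4 tracts of at least 3 Cs separated by loops of 0 to 7 bases, on both strands. The sequences came from RefSeq (GRCh38.p14), in windows from 250 bases before to 50 bases after each gene start. Of the 54 members, 48 were in the table, with 63 windows, and KPNA4, KPNA5, KPNA7, KPNB1, NUP43 and XPO7 were not in it. Such a sequence was found in 18 of the 48 members (37.5%), beside 38.9% of 15333 protein-coding genes in the same table. The 6 sequences printed here were chosen to set members with many counts (NUP62, NUP50, IPO9, KPNA3) beside members with few (XPO1) or none (RAN). The C tracts are in capitals and the loops in lower case, and each is written 5′ to 3′ on the strand that holds the Cs.
NUP62: CCCaCCCggCCCCgggCCC
NUP50: CCCCtCCCCaggggCCCgtCCCCC
IPO9: CCCCgCCCtccgCCCgctCCC
KPNA3: CCCgCCCCaCCCggCCC
XPO1: CCCtCCCCacttCCCCtCCCCC
RAN: CCCCgCCCCttgcaaCCCCgCCCC

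All of these lie upstream of the RefSeq start of the window searched, and a gene can have more than 1 such start. Those of NUP62, NUP50 and XPO1 lie within the span of the gene annotated in GENCODE v44. XPO1 also held a match on the opposite strand at another start, which is not printed. The NUP62 sequence is at chr19:49929567-49929585 on the minus strand, which is also the strand of the gene, between 81 and 63 bases before the start. The KPNA3 sequence, at chr13:49792686-49792702 on the minus strand, is the nearest to a start of those printed, ending 4 bases before it. The sequence of IPO9 is at chr1:201829083-201829103 on the plus strand, that of XPO1 at chr2:61538522-61538543 on the minus strand and that of RAN at chr12:130871989-130872012 on the plus strand, each on the strand of its gene. Only the NUP50 sequence, at chr22:45164459-45164482 on the minus strand, is on the strand opposite to its gene among the printed ones. Of the 18 members, 15 held such a sequence on the strand of the gene and 6 on the opposite strand, so 3 held both.

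Both the members with the sequence and those without it ran from the high category to below 1 TPM. The median level, in TPM (transcripts per 1000000, the count divided by transcript length and rescaled to that total in each library), was 3.32 for the 18 members with the sequence and 9.23 for the 30 without. Of the 18, 13 were expressed at a mean of at least 1 TPM, and of the 30, 20 were. Among protein-coding genes of the same table, the share that held the sequence was 38.9% at high expression, 43.7% at medium, 44.8% at low and 36.5% below 1 TPM. A match describes the letters of the window, and no folding was measured in these samples.

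The counts summed to 7019253, 6262175 and 8521624 in replicates 1, 2 and 3, and a count of 0 leaves room for up to 3 counts, or 0.427, 0.479 and 0.352 counts per 1000000 (CPM). These limits cover counting error only, as molecules carried no identifiers and reads may be copies. Replicate 3 stood apart before any member was considered. Mitochondrial genes took 25.8% of its counts, beside 9.59% and 5.70% in replicates 1 and 2, and 44.2% of its TPM beside 22.8% and 15.4%. Of 7 markers of HEK293T cells, INA (38.8 TPM), PAX2 (8.96 TPM) and KRT8 (1.35 TPM) were above 1 TPM, VIM was at 0.66 TPM, and NEFL, NEFM and KRT18 were listed at 0. Of 7 markers of other cell types, COL1A1 was at 24.8 ± 0.33 TPM (SD, n = 3) and the others were below 1 TPM.

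Of the 54 members, 38 were expressed at a mean of at least 1 TPM (70.4%), beside 38.2% of protein-coding genes and 21.7% of all 61193 genes. In the high category, at or above the third quartile of the expressed genes (24.1 TPM), were 24 members (44.4%), beside 12.5% of protein-coding genes. A further 8 members were medium, 6 were low, at or below the first quartile (2.40 TPM), and 16 lay below 1 TPM. The category was the same in every replicate for 43 of the 54. The median level of the members was 15.7 TPM, beside 0.20 TPM over protein-coding genes, and it was 13.8, 16.8 and 11.3 TPM in the 3 replicates.

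The members ranged from 0 to 41814 counts in the mean. A mean of at least 50 counts was reached by 29 members (53.7%, beside 25.4% of protein-coding genes), and the next one down, NUP88, had 30.3, while NUP85, the lowest of the 29, had 55.0. At 3 counts or fewer in every replicate were 9 members (16.7%, beside 50.9% of protein-coding genes), and 3 of these, RAN, KPNA2 and KPNA7, were listed at 0 counts in every replicate, as were 36.5% of protein-coding genes. Together the members held 118107, 108966 and 99199 counts, which is 1.53% ± 0.32 (SD, n = 3) of the counts and 0.400% ± 0.121 of the TPM. The 10 highest members held 77.1% of the TPM of all 54.

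**Figure D1:**
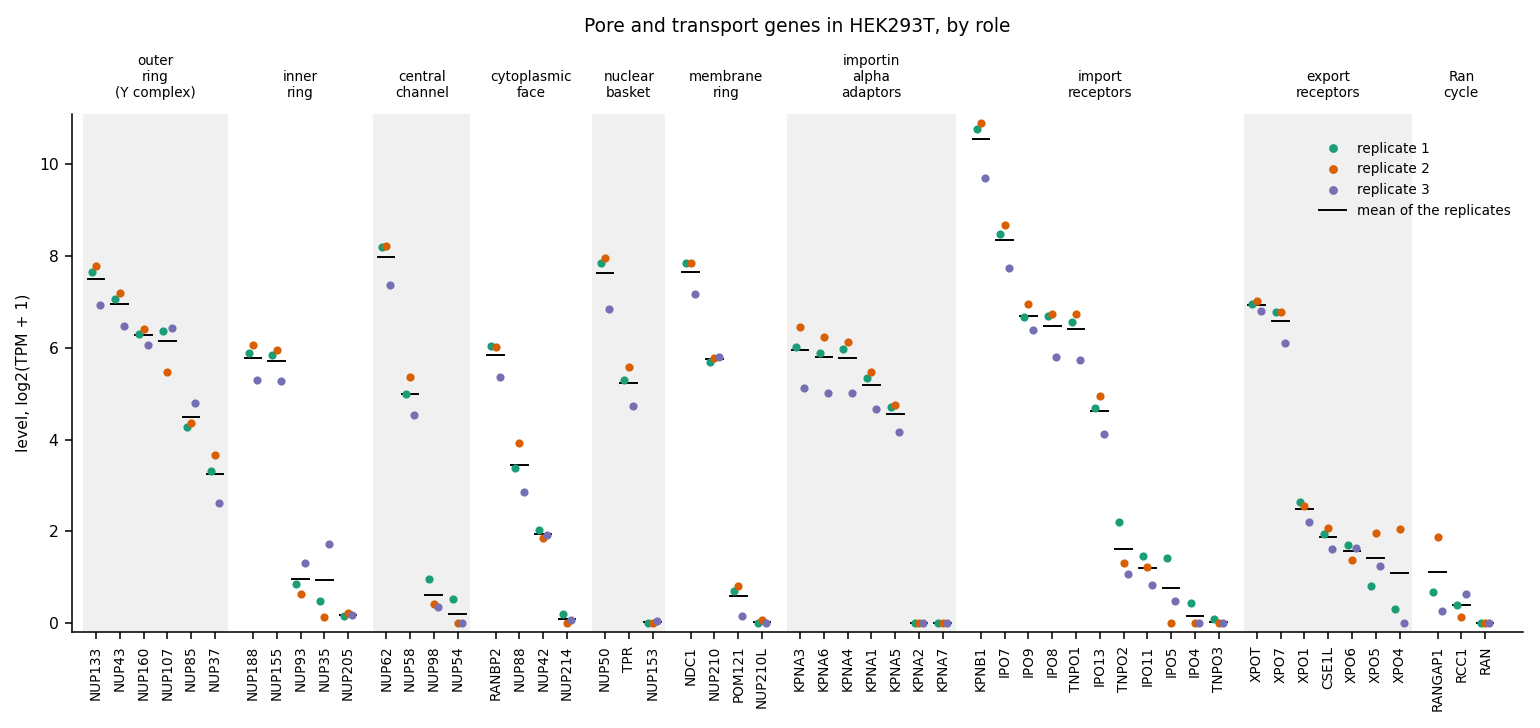
Level of each of the 54 members on the log2(TPM + 1) scale, grouped by role, with 1 point per replicate and a black line at the mean. In several roles 1 or 2 members stand far above the others, and replicate 3 is the lowest point of most members in the upper part of the plot.

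KPNB1 led the whole set. It encodes importin β, the carrier that takes cargo bound by an importin α adaptor through the pore, and its level was 1741, 1901 and 828 TPM in replicates 1, 2 and 3, from 47858, 44133 and 33452 counts. It alone held 37.2% of the TPM of the members, and 40.5%, 40.5% and 33.7% of their counts in the 3 replicates. Every replicate of KPNB1 lay above every replicate of any other member, and its TPM was 4.86, 4.69 and 3.89 times that of the next member. Among protein-coding genes it ranked 41 by mean TPM, and 10 by CPM, where length is not divided out.

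The other import receptors ranged widely. IPO7, which carries ribosomal proteins and histones, was the second highest member at 358, 406 and 213 TPM. Next came IPO9, a carrier of histones H2A and H2B, at 100, 122.5 and 82.2 TPM, then IPO8, a paralogue of IPO7, at 87.5 ± 28.2 TPM (SD, n = 3), and TNPO1, which imports RNA-binding proteins through a proline-tyrosine signal, at 84.1 ± 28.3 TPM. The order of these 3 did not hold in every replicate and their ranges overlapped. IPO13, which works in both directions, lay below them in every replicate at 23.8 ± 6.97 TPM.

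TNPO2, the paralogue of TNPO1, had 9, 4 and 4 counts, beside 4364, 3878 and 3366 for TNPO1. IPO11 had 9, 5 and 7 counts, and IPO5, a carrier of ribosomal proteins and histones, had 4, 0 and 4. The lowest import receptors were IPO4, with 1, 0 and 0 counts, and TNPO3, the carrier of serine/arginine-rich splicing factors, also with 1, 0 and 0. The 5 receptors from TNPO2 downwards had at most 9 counts in any replicate, and their order rests on too few counts to be read. Of the 11 import receptors, 8 were expressed, and KPNB1 held 70.4% of their TPM.

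The importin α adaptors bind the classical nuclear localisation signal and hand the cargo to importin β, and here no member stood out as KPNB1 did among the receptors. KPNA3 was at 63.4, 86.4 and 33.6 TPM, KPNA6 at 58.4, 74.3 and 31.3 TPM, and KPNA4 at 61.7, 69.1 and 31.2 TPM. KPNA3 was above KPNA6 in every replicate, but the 3 ranges overlapped and their means lay within 1.12 times of each neighbour. KPNA1 followed at 39.4, 43.3 and 24.3 TPM and KPNA5 at 25.2, 25.9 and 16.8 TPM. KPNA3 held 26.8% of the TPM of the adaptors, whereas by CPM KPNA4 came first.

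KPNA2 and KPNA7, the adaptors of the α1 subfamily, were listed at 0 counts in every replicate. KPNA7 is known mainly from early embryos, whereas KPNA2 is abundant in dividing cells. At its 3′ end KPNA2 lay almost wholly in other listed transcripts, with 4% of the last 300 exonic bases to itself, and 42.4% of its 31-base words occurred in other genes. The count of 0 does not show that KPNA2 RNA was absent.

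Of the 7 export receptors, all were above 1 TPM, but only 2 were in the high category. By CPM, where length is not divided out, XPO6 (0.85) and XPO4 (0.63) were below 1. XPOT, which exports tRNA, was at 122, 129 and 111 TPM, and XPO7, a carrier with a broad range of cargo, at 109, 108 and 67.7 TPM. XPOT lay above XPO7 in every replicate and their ranges did not overlap. XPO1, also called CRM1, the main exporter of proteins with a leucine-rich export signal, was at 5.25, 4.87 and 3.57 TPM from 95, 73 and 75 counts, 20.8 times below XPO7.

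CSE1L, which returns importin α to the cytoplasm, was at 2.81, 3.22 and 2.04 TPM from 25, 28 and 28 counts. XPO6, the exporter of actin, had 6, 4 and 9 counts, and XPO5, the exporter of microRNA precursors, had 3, 11 and 11. XPO4 had 1, 11 and 0 counts, so its mean of 1.13 TPM came almost wholly from replicate 2. From CSE1L downwards the ranges of neighbouring export receptors overlapped.

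The Ran cycle was the role with the fewest counts. RAN itself, the GTPase on which every carrier above depends, was listed at 0 counts in all 12 of its transcripts and in every replicate. RCC1, its chromatin-bound exchange factor, had 4, 1 and 2 counts. RANGAP1 had 4, 32 and 5 counts, of which replicate 2 put 29 on the single transcript RANGAP1-201. RANGAP1 led the role by its mean of 1.15 ± 1.32 TPM (SD, n = 3), but in replicate 3 it lay below RCC1, and without replicate 2 RCC1 led.

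All 6 members of the outer ring, or Y complex, were above 1 TPM, while SEC13 (0.65 TPM), SEH1L (0.87 TPM) and AHCTF1 (listed at 0), subunits of the complex whose symbols lie outside the rule, were not. NUP133, at the stem of the complex, was highest at 199, 218 and 121 TPM, followed by NUP43 at 134, 146 and 88.5 TPM. NUP160 was at 78.2, 84.3 and 66.0 TPM and NUP107 at 82.0, 43.4 and 85.5 TPM, and these were in this order in 1 replicate of 3. NUP85 was at 18.2, 19.6 and 26.8 TPM, and NUP37 at 8.96, 11.6 and 5.09 TPM. NUP37 was the lowest by TPM, whereas by CPM NUP85 was, at 7.34 beside 13.1 for NUP37. NUP133 held 37.5% of the TPM of the ring.

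The inner ring divided into a pair of counted members and 3 with almost no counts. NUP188 was at 58.0, 65.4 and 38.6 TPM and NUP155, which contacts the membrane, at 56.5, 60.6 and 38.0 TPM. NUP188 was above NUP155 in every replicate, but their ranges overlapped, and by CPM NUP155 came first. NUP93, the hub of the ring, had 2, 1 and 5 counts, NUP35 had 5, 1 and 7, and NUP205, the partner that resembles NUP188, had 3, 4 and 5. NUP155 by comparison had 2036, 1857 and 2046 counts.

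In the central channel, NUP62 was at 292, 299 and 166 TPM and NUP58, its partner in the same trimer, at 30.6, 40.2 and 22.2 TPM. NUP54, the remaining subunit of the trimer, had 1, 0 and 0 counts. NUP98, a mobile nucleoporin that helps form the barrier, had 17, 5 and 7 counts. NUP62 held 88.9% of the TPM of the channel.

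On the cytoplasmic face, RANBP2, which forms the filaments and binds RANGAP1, was at 64.7, 64.2 and 40.0 TPM. NUP88 was at 9.43, 14.1 and 6.23 TPM and NUP42 at 3.08, 2.63 and 2.76 TPM. NUP214, the partner of NUP88, had 2, 0 and 1 counts. The 4 members kept this order in every replicate, with ranges apart.

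In the nuclear basket, NUP50, which helps to release cargo from importin α, was at 230, 249 and 114 TPM. TPR, the main structural protein of the basket, was at 38.4, 46.7 and 25.4 TPM, and NUP153, which tethers it to the pore, had 0, 0 and 1 counts. In the membrane ring, NDC1 was at 231, 228 and 144 TPM and NUP210 at 50.8, 54.0 and 55.0 TPM. POM121 had 14, 12 and 5 counts, and NUP210L, a paralogue of NUP210 known from the testis, had 0, 1 and 0. In both roles every neighbour in the order had ranges apart.

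Over the order of all 54 members, 13 of 53 neighbouring pairs were in the same order in every replicate and 3 had ranges apart. The order by TPM therefore does not hold between most neighbours. By CPM 8 of the 54 members kept their place, KPNB1 and IPO7 at the top among them. IPO9 went to place 3, NUP62 from 3 to 7, NUP160 from 13 to 23 and NUP107 from 14 to 26. The member that led its role was the same in 8 of 10 roles, with the importin α adaptors and the inner ring as the exceptions.

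**Figure D2:**
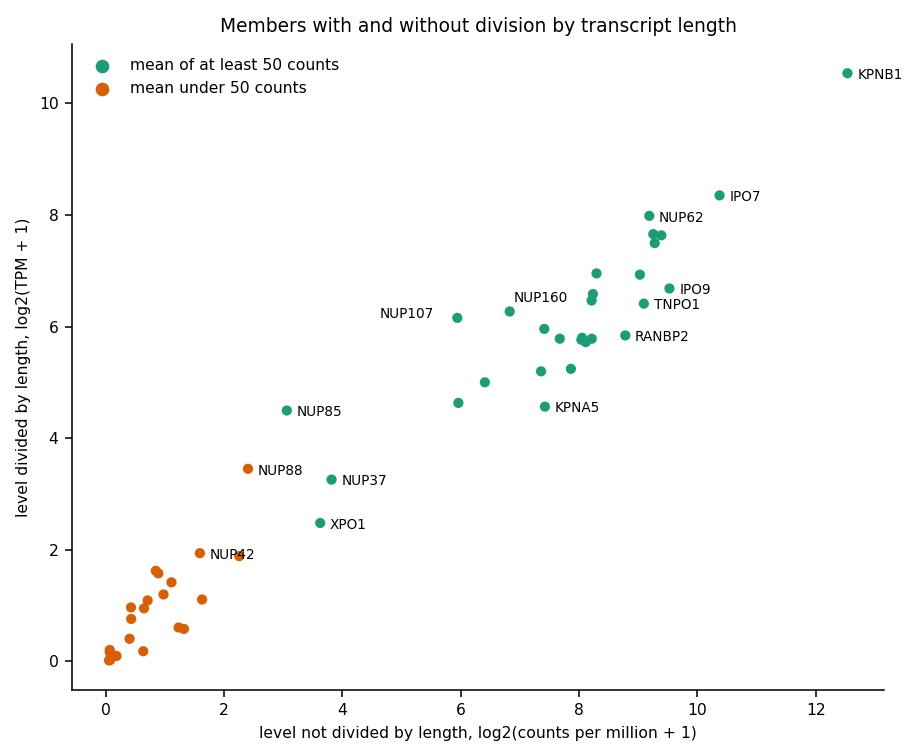
Mean level of the members with at least 1 count, in TPM against CPM, both as log2 of the value plus 1. Green and orange points mark members with a mean of at least 50 counts and under it. NUP107 and NUP85, whose TPM lies mostly on short transcripts, sit high for their counts.

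The count of a member depends on which of its listed transcripts received the reads. The members had 586 listed transcripts, of which 121 held at least 1 count. In 24 of the 29 members with a mean of at least 50 counts, the canonical transcript of GENCODE v44 held at least 90% of the counts. Transcripts of the protein-coding type held 99.4% of the counts and 95.9% of the TPM of the members, and retained introns 0.458% and 3.01%.

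The exceptions among the members with a mean of at least 50 counts were NUP62, NUP107, NUP85, NUP160 and XPO1. For NUP62, NUP62-202 (3479 bases) held 12431 of the counts and the canonical NUP62-201 held 0. For NUP107, the retained intron NUP107-207 of 825 bases held 280, 108 and 452 counts and the canonical transcript of 6213 bases 160, 194 and 138, so that 90.6% of its TPM came from the retained intron. On the canonical transcript alone NUP107 was at 5.72 TPM, beside 70.3 TPM for the gene.

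NUP85 had 36, 30 and 80 counts on NUP85-219, a transcript of 453 bases without a defined coding sequence, and 0 on its canonical transcript. NUP88 and NUP42 also had 0 counts on their canonical transcripts, and retained introns held most of their counts. For NUP160 the canonical transcript held 66.3% of the counts but 27.8% of the TPM, and a retained intron of 527 bases, NUP160-204, held 42.7% of the TPM. For XPO1 the canonical transcript held 66.7% of the counts and 51.1% of the TPM, with a retained intron, XPO1-210, at 18, 23 and 35 counts. In NUP62, NUP107, NUP160, NUP85, NUP88 and NUP42 the TPM thus came mostly from transcripts other than the canonical one. The same held for further expressed members with few counts. CSE1L, TNPO2, XPO6, IPO11 and XPO4 had 0 counts on their canonical transcripts, and that of XPO5 held 6.04% of its TPM. For TNPO2, a retained intron of 546 bases held 99.2% of the TPM.

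Reads from the 3′ end can be told apart between transcripts only where the end of a transcript is its own. For each canonical transcript, the share of its last 300 exonic bases that lay in no other listed transcript on the same strand was computed among transcripts whose listed length equals that of the GENCODE v44 model. It could be given for 40 of the 54 members. In 20 of these the end was wholly its own (50%, beside 44.3% of 14388 protein-coding genes), in 10 it was shared throughout (25%, beside 35.1%) and in 10 it was shared in part.

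Counts and the ends of the canonical transcripts went together. All 20 members with an end of their own were expressed, 19 of them had a mean of at least 50 counts, and their median was 2098 counts. NUP88, with 30.3 counts, was the exception. With transcripts of both strands compared, 0% of the end of NUP88 was its own. Of the 10 members with an end shared throughout, NUP85, NUP42 and CSE1L were expressed and only NUP85 had a mean of at least 50 counts. The others were NUP93, NUP35, NUP98, NUP54, NUP205, IPO4 and NUP214, and the median of the 10 was 4.17 counts. The pattern was weaker when the transcript with the most of its end to itself was taken for each member. By that measure 33 of 53 members had an end of their own (62.3%, beside 63.5% of protein-coding genes). Of these 33, 23 had a mean of at least 50 counts, as did 6 of 19 with an end shared in part.

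Among the 10 members with a partly shared end, 6 had a mean of at least 50 counts. RAN, with 0.67% of its end to itself, KPNA2 with 4%, IPO5 with 0.33% and XPO5 with 1% were the 4 below it. KPNA5, with 0.33%, had 1291, 1120 and 1267 counts, and NUP133, with 8.33%, had 4708, 4352 and 4200. A nearly shared end thus did not go with a low count in every member over these 300 bases. Over the last 1000 exonic bases, a length added after seeing the data, KPNA5 had 63.9% to itself and NUP133 52.2%. The share of XPO7 fell from 100% to 30% and that of IPO13 from 90% to 43.5%, with means of 2151 and 436 counts. Over these 1000 bases the share was 0.2% for RAN, 1.2% for KPNA2, 0.1% for IPO5 and 0.3% for XPO5. XPO1, with a mean of 81 counts, had 8.5%. Over protein-coding genes the same direction was present, with 48.8% of genes with an end of their own and 7.41% of genes with an end shared throughout at a mean of at least 50 counts. How reads on several transcripts were counted is not given in the sources used here, and the part of the shared ends in the low counts was not tested. For the same members, a low amount of RNA and reads left uncounted cannot be told apart.

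**Figure D3:**
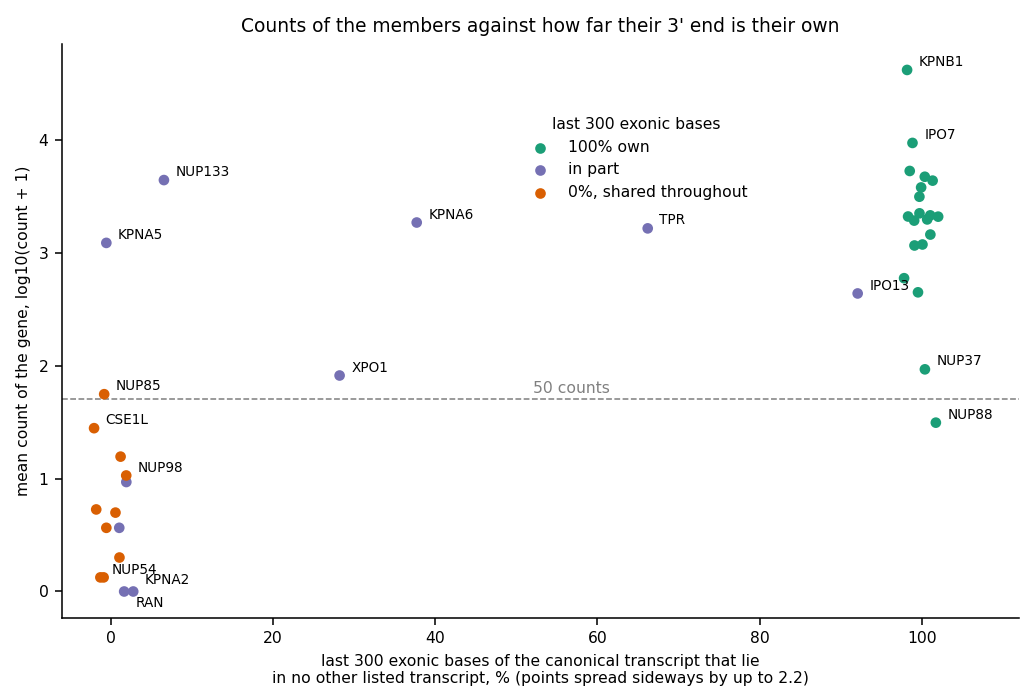
Mean count of the 40 members assessed, as log10(count + 1), against the share of the last 300 exonic bases found in no other listed transcript on the same strand. Among the 20 members at 100%, NUP88 alone is below the dashed line at 50 counts, whereas NUP85 is the only one of the 10 at 0% above it.

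Sequence shared with other genes touched further members. Of the 31-base words that start in the last 300 bases of the canonical transcript, 90.7% of those of NUP133, 67.8% of POM121, 59.3% of KPNA6, 58.9% of KPNA2, 44.1% of NUP58, 34.8% of IPO4 and 27.4% of TPR also occurred in another annotated gene. The counts of these 7 members are uncertain for that reason. Over the whole transcript, 32.9% of the words of RANBP2 occurred elsewhere, mostly in RGPD3, and 16.5% of those of RAN, mostly in the pseudogene RANP1, but none of those at their 3′ ends did. Apart from these 7 and KPNA7 (0.74%), no member assessed had shared words at its end.

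In replicate 3 the members were lower. The log2 ratio of TPM in replicate 3 over the mean of replicates 1 and 2, with 1 added to each, had a median of -0.55 over all 54 members and -0.68 over the 29 with a mean of at least 50 counts. Over 6266 nuclear genes with at least 50 counts it was -0.48. Of the 29 members, 26 were lower in replicate 3, beside 84.1% of those genes. The members ranged from -1.14 for KPNB1 to 0.48 for NUP85, and NUP107 (0.44) and NUP210 (0.07) were the other members that were higher.

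The larger mitochondrial share of replicate 3 moved with this difference. On TPM rescaled to the nuclear genes alone, the median was -0.15 over the 29 members and 0.02 over the nuclear genes, and 22 of the 29 members were lower, beside 48.1% of those genes. In CPM it was -0.45 over the members and -0.20 over the nuclear genes, with 25 of the 29 lower beside 67.4%. The lowest ratios in TPM belonged to KPNB1, KPNA3 (-1.13), NUP50 (-1.07), KPNA6 (-1.06) and KPNA4 (-1.04). The other counted importin α adaptors, KPNA1 (-0.74) and KPNA5 (-0.57), lay nearer to the median of the members. With 1 library of this kind, the difference between it and the others has no replicate check.

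**Figure D4:**
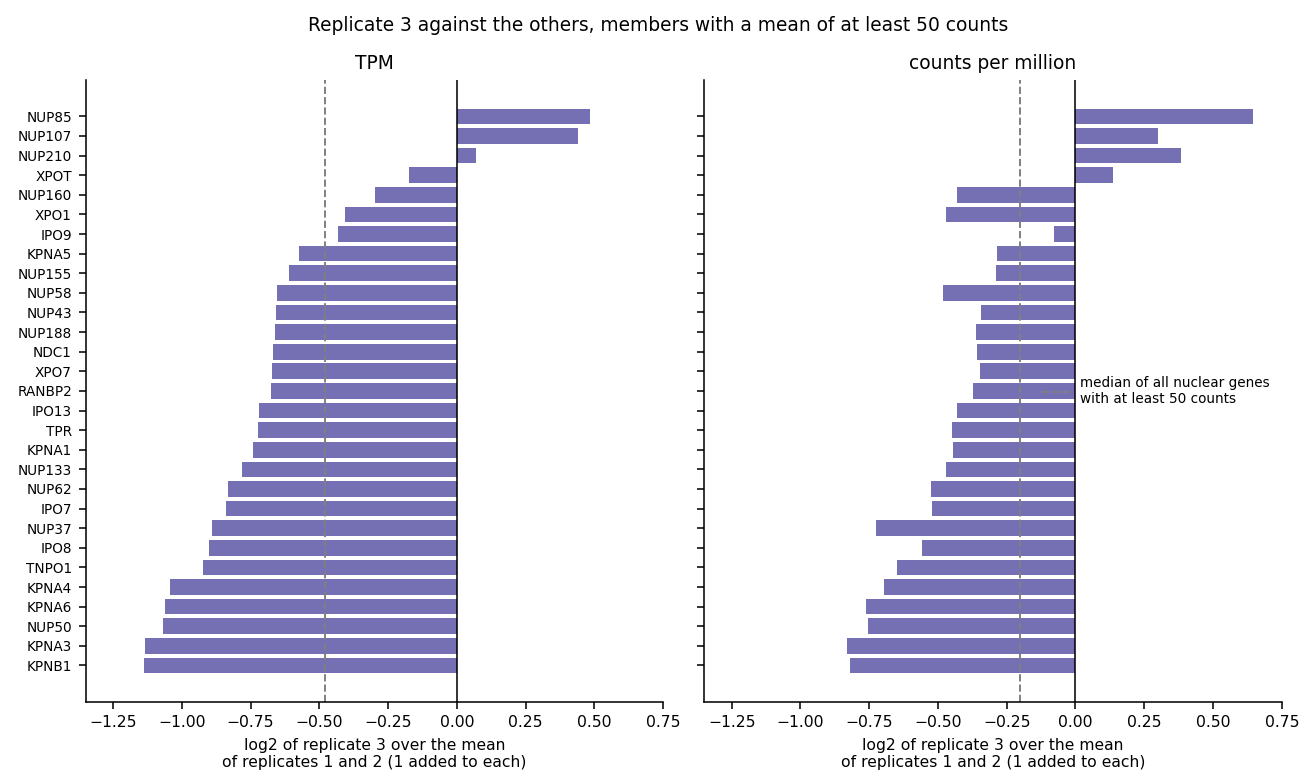
Log2 ratio of replicate 3 over the mean of replicates 1 and 2 for the 29 members with a mean of at least 50 counts, in TPM (left) and CPM (right), with 1 added to each value. The dashed line is the median of nuclear genes with at least 50 counts (-0.48 and -0.20), and most members lie to the left of it in both panels.

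The spread between replicates was larger than counting error for the counted members. For the 29 members with a mean of at least 50 counts, the median coefficient of variation of CPM was 18.1%, beside 2.25% from Poisson counting, and it was 16.6% over all genes at that depth. Among the 29 members XPOT varied least in CPM, at 5.61%, and KPNA3 most, at 33.3%. CPM totals include the mitochondrial counts, and XPOT was at 503, 504 and 554 CPM in replicates 1, 2 and 3. By TPM, NUP210 varied less than XPOT, at 53.3 ± 2.21 TPM (SD, n = 3) beside 121 ± 9.02 TPM. For the 22 members with some counts but a mean under 50, the median coefficient of variation was 65.9%, beside 49.0% from counting. At that depth counting error is therefore a large part of the spread. Much of the spread lay between replicate 3 and the others. The median SD of log2(TPM + 1) over expressed members was 0.43, and 0.21 with mitochondrial genes left out. It was 0.12 without replicate 3, beside 0.55 without replicate 1 and 0.41 without replicate 2.

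The canonical 3′ ends of the members mostly carried the poly(A) signal. AATAAA was found in the last 50 bases of the canonical transcript, on its sense strand, in 41 of 53 members (77.4%), beside 63.5% of 19351 protein-coding genes. The variant ATTAAA alone was in 5.66% of members and 14.0% of protein-coding genes, and either signal in 83% and 77.5%. RAN, KPNA1, NUP133, NUP160, XPO1 and XPO5 were among the 12 without AATAAA. This group held both counted members, such as NUP133 and KPNA1, and members with few or no counts.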

How the data were processed

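RNA-seq was measured in 3 replicates of HEK293T cells. For each replicate the authors deposited whole-number read counts per Ensembl transcript, not normalized. The deposited TPM is this count divided by transcript length and rescaled to 1000000 per library, which was checked by recomputing it. The deposited length in bases is the length of the annotated transcript. The submitters' processing notes name Trimmomatic 0.38.0, HISAT2 2.2.1 and featureCounts, and hg38. Their annotation and the handling of reads on several transcripts are not given in the sources used here. The labels give the molecule as genomic DNA and the paper total RNA, and the values were treated as RNA-seq. Reads come from the 3′ end, so division by length lowers long transcripts.

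Transcript IDs were joined without version to GENCODE v44, and counts and TPM were summed per gene over 223558 transcripts of 61193 genes. The 23983 unmatched transcripts held 0.158% to 0.166% of counts and stayed in library totals. Listed lengths differed from the v44 model for 13302 transcripts, 61 of them of members, and these were left out of the comparison of 3′ ends. Categories used quartiles of the 13296 genes with a mean of at least 1 TPM. SDs are over 3 replicates. Replicates differed by more than counting noise (chi-square per degree of freedom 20.6 to 216 over 6289 genes), so all were kept.

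All members may be named. Full values went to the highest and lowest member of each role, the 10 highest members and those at 0 counts, and other members were named for completeness. From the other lists, the 2 highest genes of each and those at 0 were named, with VIM, KRT8, SEC13 and SEH1L named after their values were seen. Members, roles, lists and alternatives were chosen with earlier results of these data known. Alternatives changed the threshold, length division, mitochondrial genes, pseudocount, replicates and the sequence search. On simulated counts of 61193 genes, the category was recovered for 96.5% of 200 genes set to known levels and for 91.7% of 12920 expressed ones. The simulated counts held Poisson counting error only. These shares therefore leave out the larger spread between replicates and any reads left uncounted. The sequence search found 200 of 200 sequences planted among As and Ts. It called 0 of 200 backgrounds of As and Ts alone, which cannot match, so calls in C-rich windows were not checked. Python 3.11.15, numpy 2.4.6, pandas 2.3.3 and matplotlib 3.10.9 were used.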

Additional observations from a re-analysis of the deposited data

How the results depend on the processing

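Of 56 alternative values, 44 kept to the reported value within the spread or within 1.5 times for counts and 12 moved. Only the log2 ratio of replicate 3 over the others could change sign, and it stayed negative in every alternative. Without division by length the median of the members was 12.2 CPM, and they held 1.53% of the library. With mitochondrial genes left out the median was 22.2 TPM, the share 0.544%, and the median of replicate 3 over the others -0.14. That median was -0.67 with a pseudocount of 0.1, -0.68 in members with a mean of at least 50 counts and, in an alternative chosen after seeing the data, -0.35 in CPM. The median SD of log2(TPM + 1) over expressed members was 0.43, beside 0.38 over all expressed genes, was 0.21 with mitochondrial genes left out, and ranged from 0.12 without replicate 3 to 0.55 without replicate 1. With every matched transcript compared, also chosen after seeing the data, 21 of 53 members had an end shared throughout in place of 10 of 40 (39.6%, beside 40.5% of protein-coding genes). Of these, 4 had at least 50 counts, KPNB1 among them, whose transcript KPNB1-214 is listed at 896 bases but has 6182 in the v44 model. In the same comparison 21 members had an end of their own (39.6%, beside 39.3% of protein-coding genes), 18 of them with at least 50 counts. The others were RANGAP1, XPO4 and KPNA7. With tracts of at least 2 Cs, 45 members held a promoter match (93.8%, beside 93.1% of protein-coding genes), with 5 tracts 9 did (18.8%, beside 22.3%) and with loops of up to 12 bases 23 did (47.9%, beside 53.6%). Leaving out each replicate in turn gave 38 to 40 expressed members, 24 to 25 high ones, a median of 14.2 to 15.8 TPM and a share of 0.357% to 0.469%. The alternatives on 3′ ends, on members at 3 counts or fewer and on members with at least 50 counts were all added after seeing the data. No paired analysis was possible because there is only 1 condition, so no groups share replicate numbers. Members at 3 counts or fewer are at the limit of depth, and no absence is claimed for them.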

Other observations

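Genes that work with the members but lie outside the rule were listed from 0 to 988 TPM. Of 9 further pore proteins, 2 were above 1 TPM, GLE1, which acts in mRNA export at the cytoplasmic face, at 269, 302 and 175 TPM, and TMEM33 at 96.9, 103 and 48.6 TPM. AAAS, AHCTF1, which seeds pore assembly on chromatin, and RAE1 were listed at 0. Of 11 further transport factors, 7 were above 1 TPM, led by PHAX, the adaptor for export of small nuclear RNA, at 148 ± 64.7 TPM (SD, n = 3), and NMD3, the adaptor for the large ribosomal subunit, at 117, 134 and 75.6 TPM. RANBP3 and SENP1 were listed at 0.

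Of 12 mRNA export genes, 9 were above 1 TPM, with ALYREF highest at 1061, 1309 and 592 TPM and NXT1 at 297, 342 and 194 TPM, while the helicase DDX39B was listed at 0. Of 7 genes of the nuclear lamina, 5 were above 1 TPM, with TMPO at 629 ± 155 TPM and EMD at 302 ± 117 TPM, while BANF1 was listed at 0. Over these 4 lists, the 3′ end of 32 genes was assessed. All 7 with an end of their own had a mean of at least 50 counts, as did 1 of 11 with an end shared in part and 2 of 14 with an end shared throughout. These 3, named after their values were seen, were DDX19A (53.0 counts), RANBP17 (57.3 counts) and MCM3AP (50 counts).

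Of the pseudogenes named after members, 30 were in the data, and IPO5P1 had 29, 27 and 23 counts, beside 4, 0 and 4 for IPO5. KPNA2P2 had 14, 10 and 11 counts and RANP6 had 1, 6 and 6, beside 0 in every replicate for KPNA2 and RAN. Of the 31-base words of IPO5, 0.30% occurred in IPO5P1 and none at its 3′ end. Which gene the reads of these copies came from was not tested.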
